A study of Arabidopsis thaliana with 6 samples.

Results

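The genes described here are 10 members of the B subfamily of ATP-binding cassette (ABC) transporters of *Arabidopsis thaliana*: *PGP10* (also named *ABCB10*) and the related genes *ABCB1*, *ABCB4*, *ABCB9*, *ABCB11*, *ABCB12*, *ABCB13*, *ABCB14*, *ABCB19* and *ABCB21*. The 10 were taken by gene identity, and all were found among the 32678 genes of the expression table. *PGP10* itself was picked by the study on these same samples, so its difference, its rank and its place among genes of like level are a description and not those of a gene chosen blind. The mRNA of *agl62* seeds was compared with that of WT seeds at 30 hr after pollination, by RNA sequencing of 3 biological replicates per genotype. *AGL62* encodes a type I MADS-box transcription factor of the endosperm, and the study asked how the endosperm starts the development of the seed coat.

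The *agl62* seeds came from plants labelled agl62/-, homozygous mutants that arise at low frequency, and the WT seeds came from wild-type plants whose strain the labels do not give. In both genotypes the plants were emasculated before the flowers opened and pollinated by hand, and whole seeds were taken, so that endosperm, embryo and seed coat were measured together. In such a mixture, fewer cells of a type and less RNA per cell cannot be told apart. The table holds 1 value per gene and genotype, the authors' mean of the normalized counts of 3 libraries. The spread between libraries is therefore unknown, no test of a single gene was made, and each interval given here covers counting error only.

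ABCB proteins are membrane pumps that use ATP to move substrates across a membrane. A full-size ABCB protein joins a pair of membrane-spanning domains and a pair of nucleotide-binding domains in a single chain. Several members of the subfamily in *Arabidopsis* carry auxin across the plasma membrane, alongside the PIN exporters and the AUX1/LAX importers. The study proposes that auxin made in the endosperm after fertilization most likely acts as a signal to the seed coat.

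As a check of the labels, *AGL62* itself had a mean of 1.81 normalized counts in *agl62* seeds, against 410 in WT seeds, which is at least 137-fold lower when the *agl62* level is set to a floor of 3. The means under 1 showed how much 1 count weighed in each library, and from this the relative depths were 1.06, 1.15 and 1.3 for the *agl62* libraries and of 0.456, 1.02 and 1.38 for the WT libraries. One WT library was thus the shallowest of the 6. The means of all genes summed to 58421347 in *agl62* and 60412799 in WT.

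*PGP10* (AT1G10680) lies on the minus strand of chromosome 1 at 3538333 to 3543925 in TAIR10.1, has up to 13 exons and encodes a protein of 1227 amino acids. Its closest relative in the subfamily was *ABCB2*, with 82.7% identical residues, whereas the other 9 genes shared between 44.4% (*ABCB9*) and 50.9% (*ABCB19*) of their residues with PGP10. The pair is shown because reads of *ABCB2*, a gene with a far higher level per kb of exon, could be mistaken for reads of *PGP10* where the sequences are alike. The most alike 100 bases of their coding sequences, from RefSeq TAIR10.1, are printed with the bases that differ in capitals.
PGP10, chr1:3542821-3542920, minus strand: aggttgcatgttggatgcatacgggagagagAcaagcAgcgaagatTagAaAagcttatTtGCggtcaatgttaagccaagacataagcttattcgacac
ABCB2, chr4:13178190-13178289, plus strand: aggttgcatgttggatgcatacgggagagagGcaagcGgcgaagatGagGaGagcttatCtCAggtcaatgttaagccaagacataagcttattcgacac

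Even in this stretch 8 of 100 bases differed. No window of 100 exon bases of *PGP10*, out of 2765, had a copy elsewhere in the genome with up to 2 mismatches, and the same held for the 2928 windows of *ABCB2*. The length of a window is that of a single read of these libraries. Windows were cut within single exons, so stretches across exon junctions and exons shorter than 100 bases were not searched.

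The members with the most similar sequences formed 2 pairs, both on chromosome 1. ABCB11 and ABCB12 shared 92.7% of their residues, and their genes lie one after the other at 523536 to 529069 and 529679 to 534677. ABCB13 and ABCB14 shared 90.1%, at 9733430 to 9738236 on the minus strand and 9763211 to 9768113 on the plus strand. The next sequences are shown because each is present without a difference in both genes of its pair, so that a single read inside it cannot be placed.
ABCB11, chr1:527733-527832, plus strand, and ABCB12, chr1:533528-533627, plus strand: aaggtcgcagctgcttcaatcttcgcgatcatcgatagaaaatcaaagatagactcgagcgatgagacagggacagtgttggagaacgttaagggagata
ABCB13, chr1:9735848-9735947, minus strand, and ABCB14, chr1:9765587-9765686, plus strand: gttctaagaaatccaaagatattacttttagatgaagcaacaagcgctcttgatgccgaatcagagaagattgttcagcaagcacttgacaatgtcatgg

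A copy with up to 2 mismatches was found for 7.67% of the windows of *ABCB11* and 7.68% of those of *ABCB12*, and for 3.81% of those of *ABCB13* and 3.83% of those of *ABCB14*. Exact copies were fewer: 8 of 3378 windows of *ABCB11*, 8 of 3374 of *ABCB12*, 21 of 3335 of *ABCB13* and 21 of 3318 of *ABCB14*. The authors kept uniquely mapping reads, so reads from such windows could be lost or misplaced. How far this changed the levels of these 4 genes was not measured. The other 6 genes had no such window.

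*PGP10* was the only one of the 9 genes with enough counts for a ratio whose level differed by 2-fold or more between the genotypes, and *ABCB14* was too low for a fold. Its mean was 44.2 normalized counts in *agl62* seeds and 587 in WT seeds. This is 7.53% of the WT level, with a 95% counting interval of 6.37 to 8.90%, or 13.3-fold lower. On the scale of log2(mean + 1), used for all further log2 ratios, the difference was −3.70. Counting intervals are those of the ratio without a pseudocount. The means rest on 140 to 173 counts in the 3 *agl62* libraries together and on 803 to 2426 counts in the 3 WT libraries, depending on which library they fell in. *PGP10* ranked 212 from the lowest ratio among the 20255 genes that had 10 or more normalized counts on average in *agl62* or in WT.

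Of the 10 genes, 9 passed this minimum of 10. Among those 9, 1 was at least 2-fold lower in *agl62*, beside 3.46% of all 20255 genes, and 0 were at least 2-fold higher, beside 3.00% of all genes. The other 8 were within 2-fold. A count of 1 among 9 does not set the group apart from all genes. The median log2 ratio of the 9 genes was −0.10, with 5 below 0 and 4 above 0, and that of all genes was 0.01. Low genes vary more, so *PGP10* was also set beside genes of like level. Among 6202 genes whose geometric mean over the genotypes was 100 to 1000, 2.13% were at least 2-fold lower in *agl62* and 22, *PGP10* included, had a ratio at or below that of *PGP10*.

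*ABCB9* (AT4G18050, chromosome 4, 10021786 to 10027425, plus strand) came next. Its mean was 309 normalized counts in *agl62* and 597 in WT, which is 51.8% of the WT level (95% counting interval 47.8 to 56.0%) and a log2 ratio of −0.95, just inside 2-fold, with an interval that reaches past it. Of all genes, 3.60% had a lower ratio than *ABCB9*. Among the genes with a geometric mean of 100 to 1000, *ABCB9* included, the 5th percentile was −0.53 and 2.13% were at least 2-fold lower. An exon of AT4G18060, a gene for an SH3 domain-containing protein on the opposite strand, covers 18.2% of the exon bases of *ABCB9*. AT4G18060 had means of 3270 in *agl62* and 3240 in WT, and whether the reads were counted by strand is not stated, so part of the *ABCB9* counts could be its reads. *PGP10* shares only 12 exon bases, or 0.299%, with its neighbour on the opposite strand, *ACLA-1* (28700 in *agl62*, 29400 in WT), which encodes a subunit of ATP citrate lyase.

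**Figure D1:**
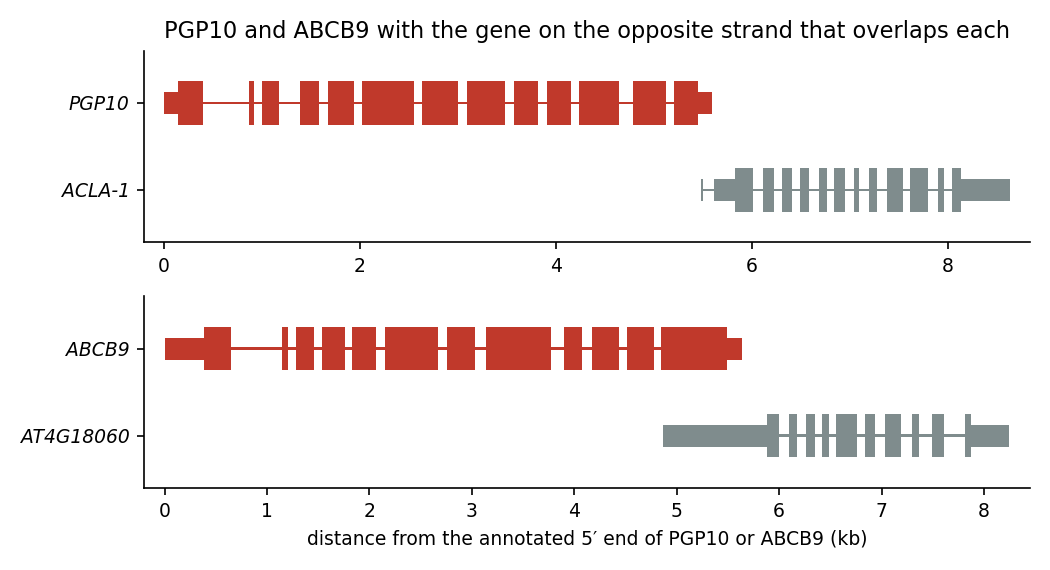
Gene models of *PGP10* with *ACLA-1* (upper panel) and of *ABCB9* with AT4G18060 (lower panel), the gene on the opposite strand that overlaps each. The horizontal axis is the distance from the annotated 5′ end of *PGP10* or *ABCB9* in kb, tall boxes are coding exon parts, low boxes are untranslated exon parts and lines are introns. *ACLA-1* touches *PGP10* with 12 exon bases, whereas the untranslated part of an exon of AT4G18060 runs over 18.2% of the exon bases of *ABCB9*.

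*ABCB1* and *ABCB19* encode the best known auxin exporters of the subfamily, which act in long-distance auxin transport. *ABCB1* (AT2G36910) had a mean of 37100 normalized counts in *agl62* and 40100 in WT, a log2 ratio of −0.11 with a counting interval of −0.12 to −0.10. *ABCB19* (AT3G28860) had 40300 in *agl62* and 38300 in WT, a log2 ratio of 0.07 with a counting interval of 0.06 to 0.09. These intervals are narrow because the levels are high, and both ratios lie well within the 5th and 95th percentiles of all genes, which were −0.68 and 0.73.

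The adjacent genes *ABCB11* and *ABCB12* were also close to even. *ABCB11* (AT1G02520) had 2870 normalized counts in *agl62* and 3070 in WT, a log2 ratio of −0.10. *ABCB12* (AT1G02530) had 18000 in *agl62* and 19500 in WT, a log2 ratio of −0.12. Together with *ABCB1* and *ABCB19*, these were the 4 genes with the highest levels per kb of exon among the 10, and none of the 4 differed by more than 0.12 on the log2 scale.

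*ABCB4* encodes an auxin transporter known from roots, where it can work as importer or exporter depending on the auxin concentration, and *ABCB21* is its closest relative (83.9% identical residues), described with the same property. *ABCB4* (AT2G47000) had a mean of 138 normalized counts in *agl62* and 100 in WT, a log2 ratio of 0.46 with a counting interval of 0.24 to 0.69, and 90.3% of all genes had a lower ratio. This was the highest ratio of the 9 genes. *ABCB21* (AT3G62150) had 28.2 in *agl62* and 26.3 in WT. Its log2 ratio of 0.10 has a counting interval of −0.36 to 0.56, so that no difference was detectable at this depth. Overlapping genes cover little of either: *ABCB21* shares 97 exon bases (2.18%) with AT3G62140 on the opposite strand (1240 in *agl62*, 1200 in WT). *ABCB4* shares 31 exon bases with AT2G46995, listed at 0 in both genotypes, and 152 with the long non-coding RNA AT2G09775, not analysed here.

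*ABCB13* and *ABCB14* were, with *ABCB21*, the lowest of the 10 per kb of exon. ABCB14 is known as a malate importer of guard cells, the cells that open and close stomata. *ABCB13* (AT1G27940) had a mean of 29.5 normalized counts in *agl62* and 24.5 in WT, and a log2 ratio of 0.26, whose counting interval, −0.20 to 0.74, includes 0. *ABCB14* (AT1G28010) had 1.77 in *agl62* and 0.81 in WT, from 6 to 7 counts in *agl62* and 1 to 3 counts in WT. Both values are under the floor of 3, and no fold is given.

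Levels of different genes were compared per kb of exon, as normalized counts per kb. *ABCB19* (9301 in *agl62*, 8839 in WT) and *ABCB1* (7814 in *agl62*, 8446 in WT) stood highest, followed by *ABCB12* (4264 in *agl62*, 4620 in WT) and *ABCB11* (635 in *agl62*, 679 in WT). *PGP10* had 11.03 per kb in *agl62* and 146 per kb in WT, and *ABCB9* had 72.3 per kb in *agl62* and 140 per kb in WT. *PGP10* thus stood 7th of the 10 in *agl62*, below *ABCB4* (27.4 per kb), and 5th in WT. The lowest were *ABCB13* (7.23 in *agl62*, 6 in WT), *ABCB21* (6.35 in *agl62*, 5.92 in WT) and *ABCB14* (0.425 in *agl62*, 0.195 in WT). Divided by coding length instead, the order in *agl62* was the same, whereas 3 pairs of neighbours changed places in WT: *ABCB1* with *ABCB19*, *ABCB9* with *PGP10*, and *ABCB21* with *ABCB13*. The order within those pairs is therefore not settled in WT.

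**Figure D2:**
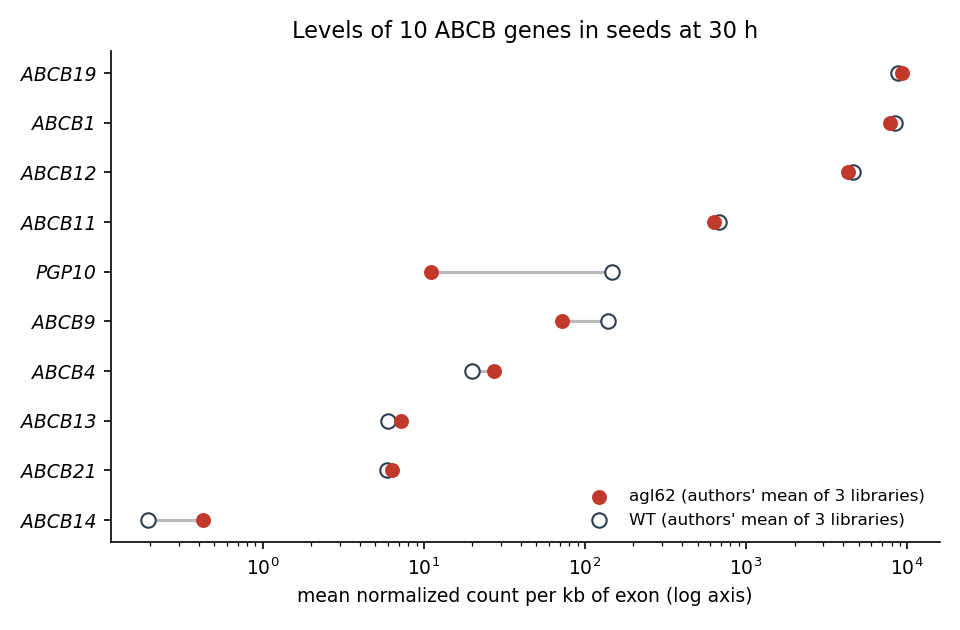
Levels of the 10 genes per kb of exon on a log axis, with filled points for *agl62* and open points for WT, each the authors' mean over 3 libraries and therefore without an error bar. The points of *PGP10* are the farthest apart among the 9 genes with a fold, at 11.03 in *agl62* and 146 in WT, and those of the 4 highest genes nearly coincide.

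*PGP10* made up a small share of the subfamily. Of the per-kb sum of the 21 full-size ABCB genes, it held 0.0355% in *agl62* and 0.464% in WT, against 29.9% in *agl62* and 28.0% in WT for *ABCB19*, and 25.2% in *agl62* and 26.7% in WT for *ABCB1*. Per kb, the level of its closest relative *ABCB2* was 589 times that of *PGP10* in *agl62* seeds and 43.4 times in WT seeds.

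The other full-size ABCB genes were mostly even between the genotypes. Of 11 in the table, 7 passed the minimum of 10, with a median log2 ratio of 0.03. Among those 7, 0 were at least 2-fold lower in *agl62*, beside 3.46% of all genes, and 1 was at least 2-fold higher, beside 3.00%. *ABCB2*, the closest relative of *PGP10*, had 27100 normalized counts in *agl62* and 26500 in WT, a log2 ratio of 0.03 (counting interval 0.02 to 0.05). The gene that was higher was *ABCB16* (AT3G28360), with 31.6 in *agl62* and 10.1 in WT, a log2 ratio of 1.55. Its WT mean rests on only 14 to 42 counts. Among genes whose geometric mean over the genotypes was under 100, as that of *ABCB16* was, 12.9% were at least 2-fold higher. *ABCB3* and *ABCB18* were listed at 0 in both genotypes, and *ABCB5* and *ABCB22* had means under 1.

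**Figure D3:**
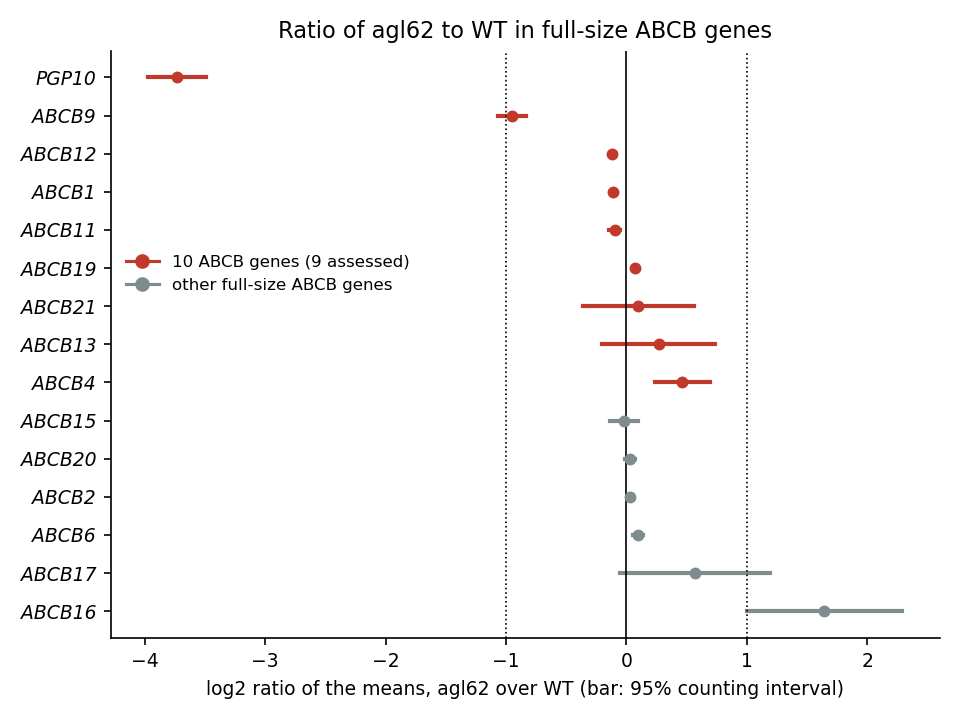
Log2 ratio of *agl62* over WT, without a pseudocount, for the 9 assessed members and 6 of the 7 other assessed full-size ABCB genes, with 95% counting intervals as bars, which leave out the spread between libraries. Dotted lines mark 2-fold. *PGP10* lies lowest at −3.73 and *ABCB9* next at −0.95, *ABCB16* lies highest at 1.65, and the other genes sit between −0.12 and 0.57.

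Marker genes of the tissues in a seed were read beside these values. Of 13 endosperm markers, 11 passed the minimum, with a median log2 ratio of −1.51. Among those 11, 7 were at least 2-fold lower in *agl62*, beside 3.46% of all genes. A further 1 was at least 2-fold higher, beside 3.00% of all genes, and 3 were within 2-fold. Of genes whose geometric mean over the genotypes was under 100, 14.7% were at least 2-fold lower and 12.9% at least 2-fold higher. *MINI3*, *YUC10*, *TAR1*, *AGL36*, *AGL28*, *PHE2* and *AGL45* were of that level. The summed level of the 13 markers was 811 normalized counts in *agl62* and 1825 in WT, and *AGL90* had 9.4 in *agl62* and was listed at 0 in WT. Those with lower means included *MINI3*, a WRKY factor of endosperm growth (7.46 in *agl62*, 149 in WT; log2 −4.15), *MEA*, a Polycomb gene (49.8 in *agl62*, 333 in WT; −2.72), and *PHE1*, a type I MADS-box gene (98.6 in *agl62*, 302 in WT; −1.61). The auxin synthesis genes *YUC10* (4.6 in *agl62*, 32.9 in WT; −2.60) and *TAR1* (5.15 in *agl62*, 47.6 in WT; −2.98) were lower as well, as were *AGL36* (11.1 in *agl62*, 33.4 in WT; −1.51) and *FWA* (358 in *agl62*, 720 in WT; −1.01). *AGL28*, another type I MADS-box gene, was the marker at least 2-fold higher (46.0 in *agl62*, 10.5 in WT; 2.03). Of the 3 within 2-fold, *PHE2* was lower (60.0 in *agl62*, 96.3 in WT; −0.67). *FIS2* (143 in *agl62*, 83.9 in WT; 0.76) and *AGL45* (13.9 in *agl62*, 8.93 in WT; 0.59) were higher. The minimum was passed by *MINI3*, *YUC10* and *TAR1* through WT alone, and by *AGL45* through *agl62* alone. The count of lower markers thus depends in part on the filter. The part of these markers in the value of *PGP10* was not tested.

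The 11 seed coat markers differed little, with log2 ratios from −0.15 to 0.07 and a summed level of 351040 in *agl62* and 358870 in WT. None was at 0. Of the 4 embryo markers, whose sum was 394 in *agl62* and 91.8 in WT, *LEC1* was 8.55-fold higher (325 in *agl62*, 38 in WT) and *FUS3* at least 4.13-fold higher (12.4 in *agl62*, 0.242 in WT, set to the floor of 3). The other 2, both homeobox genes, had log2 ratios whose counting intervals include 0: *WOX2* had 16 in *agl62* and 20 in WT (−0.30, interval −0.88 to 0.24), and *WOX8* had 40.6 in *agl62* and 33.6 in WT (0.27, interval −0.13 to 0.67). *LEC1* alone made up most of the summed level in *agl62*. *FUS3* passed the minimum of 10 through *agl62* alone, so its count as higher depends in part on the filter. Its geometric mean over the genotypes was under 100, where 12.9% of genes were at least 2-fold higher. Over all genes that share was 3.00%. All 7 markers of green tissue had ratios above 0, with a sum of 81291 in *agl62* and 56520 in WT. Their median log2 ratio was 0.43, against 0.01 for all genes. None of the 7 was past 2-fold, beside 3.00% of all genes higher. The lowest of them, *RBCS2B* (31.4 in *agl62*, 29.7 in WT; 0.08), had a counting interval of −0.36 to 0.52, which includes 0. The part of embryo and green tissue in the values of *PGP10*, *ABCB4* and *ABCB16* was not tested.

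**Figure D4:**
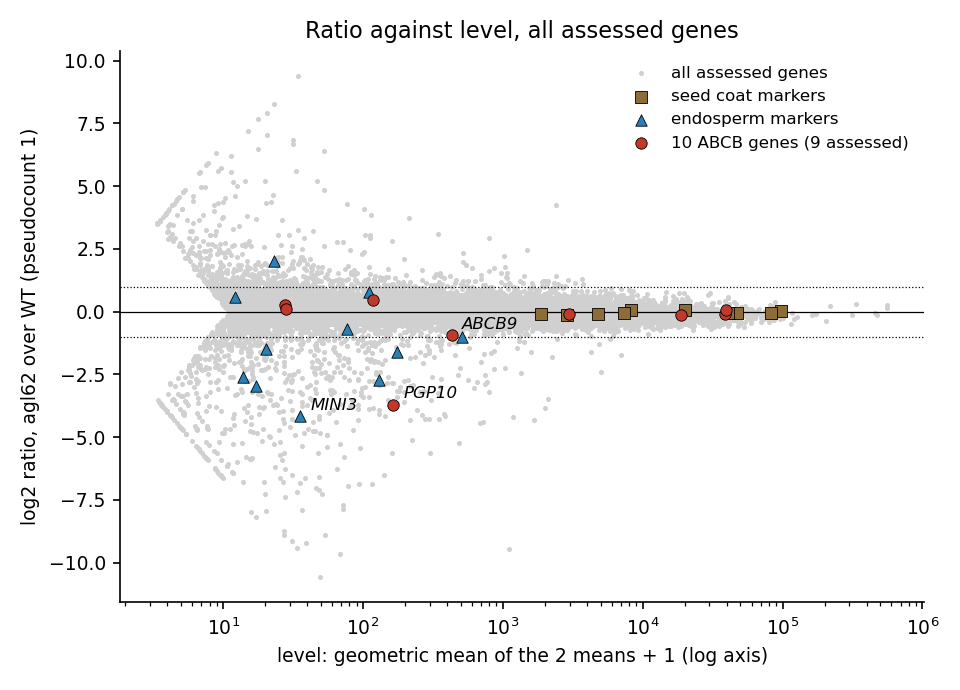
Log2 ratio of *agl62* over WT (pseudocount 1) against level, the geometric mean of both means plus 1 on a log axis, for the 20255 genes that reached 10 normalized counts in *agl62* or WT. Circles are the 9 assessed ABCB genes, triangles the 11 endosperm markers, squares the 11 seed coat markers, and dotted lines mark 2-fold. *PGP10* at −3.70 lies among the lower endosperm markers in ratio, above *MINI3* at −4.15, while the seed coat markers lie along 0. For genes with a level of 100 to 1000, the 5th and 95th percentiles were −0.53 and 0.65.

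AGL62 belongs to the MADS-box factors, a family known to bind CArG boxes, and many auxin-responsive promoters hold the element TGTCTC, so the DNA before the 9 genes other than *PGP10* (*ABCB14* included) was searched for both on both strands. The 250 bases upstream of the annotated 5′ end of *ABCB9* are shown, from RefSeq TAIR10.1, because *ABCB9* had the lowest ratio after *PGP10*, and TGTCTC or its reverse complement GAGACA would stand in capitals.
ABCB9, chr4:10021536-10021785, plus strand: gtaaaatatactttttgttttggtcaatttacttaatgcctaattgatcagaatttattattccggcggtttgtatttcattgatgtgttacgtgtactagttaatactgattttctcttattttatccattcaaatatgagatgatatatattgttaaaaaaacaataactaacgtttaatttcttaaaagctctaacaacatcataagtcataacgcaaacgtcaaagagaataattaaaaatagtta

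The upstream window of *ABCB9* does not hold the element. Of the 9 genes searched, *ABCB13* and *ABCB19* held it within 250 bases, as did 10.9% of 27443 genes, and their log2 ratios were 0.26 and 0.07. Within 1000 bases *ABCB12*, *ABCB13* and *ABCB19* held it, 3 of the 9, as did 39.6% of all genes. No CArG box was found within 250 bases of any of the 9 genes searched, *PGP10* not being among them, and 2.52% of all genes held one. Within 1000 bases only *ABCB1* of the 9 searched held a CArG box, 597 bases before its start, as did 7.21% of all genes. These are matches of letters, and say nothing of binding.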

How the data were processed

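Per the labels, mRNA of seeds of 3 *agl62* and 3 WT samples was sequenced as 100 bp paired end reads (TruSeq RNA, HiSeq2000). The authors used TopHat to align the reads to TAIR10, kept those with a single position and compared the genotypes with DESeq. The counting tool, annotation, strand setting and versions are not given in the sources used here. The deposited signal of each gene is the authors' mean over 3 libraries of size-factor-scaled counts, given to 3 significant digits. The table has 4 further columns, the authors' fold change, log2 fold change, p-value and adjusted p-value, which were not used.

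The planned test on counts per library could not be made, since only 1 mean per genotype is held. From the means, log2((*agl62* + 1)/(WT + 1)) was computed for genes that reached a mean of 10 in *agl62* or WT. A ratio of at least 2-fold was counted, and means at or under 3 were treated as a floor. A counting interval (95%) was taken from the ratio without a pseudocount, with the weight of a single count per library read from means under 1. The depth reading, the log2 ratio with its 2-fold call and the counting interval were tested on simulated counts without extra spread between libraries. The other steps were not tested in this way. Names, exons and sequences came from RefSeq TAIR10.1, joined by locus, and the deposited values carry no coordinates. Proteins were translated from coding sequences and aligned with Biopython 1.88, and copies of windows were sought with bwa 0.7.19. Python 3.11.15, numpy 2.4.6 and pandas 2.3.3 were used.

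The members and gene lists were chosen with earlier results of these data known. Genes named from lists were those past 2-fold, the 10 members, overlapping genes, and the 3 genes nearest to *PGP10* in both means. Other genes were named after values were seen, as closest relatives, for their role, or for a low or high ratio within their list. Alternatives were a pseudocount of 10, a minimum of 50 or none, a fold of 1.5, equal totals, centring on the median, and coding length. Some items of the gene family and its sequences are not reported here.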

Additional observations from a re-analysis of the deposited data

How the results depend on the processing

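The log2 ratio of *PGP10* stayed between −3.73 and −3.46 under a pseudocount of 10, no pseudocount, equal totals and centring on the median of all genes, and the ratio of none of the 9 assessed members changed sign under these 4 settings. With a fold of 1.5, 2 of the 9 members were lower in *agl62*, *PGP10* and *ABCB9*, in place of 1. Over all genes, the number lower in *agl62* was 701. It was 1172 with a fold of 1.5, 405 with a minimum mean of 50 and 1154 with no minimum. The number higher was 607. It was 1420 with a fold of 1.5, 264 with a minimum of 50, 1375 with no minimum and 361 with a pseudocount of 10. Equal totals moved the median log2 ratio of all genes to 0.06, and the ratios of *ABCB1*, *ABCB11*, *ABCB12* and *ABCB19*, which lie near 0, to −0.06, −0.05, −0.07 and 0.12. That shift comes from the scaling itself.

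No paired analysis was possible because the values are 1 mean per genotype and carry no replicate. For the same reason leaving out a library was not run, and the share of any single library in the *PGP10* difference is unknown. Genes with few counts, above all *ABCB14*, *ABCB13*, *ABCB21* and the WT level of *ABCB16*, are limited by depth.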

Other observations

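The other auxin carriers leaned towards lower means in *agl62*. Of 12 PIN exporters and AUX1/LAX importers, 10 passed the minimum mean of 10. Of these, 9 had a log2 ratio below 0 and 1 above, with a median of −0.31. None was past 2-fold, beside 3.46% of all genes lower and 3.00% higher. The lowest was the importer *LAX3* (8.76 normalized counts in *agl62*, 17.2 in WT; log2 −0.90), followed by the exporters *PIN7* (219 in *agl62*, 348 in WT; −0.67) and *PIN4* (129 in *agl62*, 196 in WT; −0.60). *LAX3* passed the minimum through WT alone, so its place depends in part on the filter. Its counting interval was −1.65 to −0.29. Of genes whose geometric mean over the genotypes was under 100, as that of *LAX3* was, 14.7% were at least 2-fold lower.

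Genes listed for a role in ABCB function or, for *BIG*, in polar auxin transport were closer to even. *TWD1*, an immunophilin-like protein that ABCB1 and ABCB19 need to reach the plasma membrane, had 1660 in *agl62* and 1670 in WT. The kinase gene *PID* had 2190 in *agl62* and 1900 in WT (log2 0.20), and *BIG*, a gene of polar auxin transport, had 19600 in *agl62* and 17100 in WT (0.20). The light receptor kinase gene *PHOT1* had 23.4 in *agl62* and 22.9 in WT. Of the 7 shorter genes of the subfamily, *ABCB23* to *ABCB29*, 6 passed the minimum, with log2 ratios from −0.03 to 0.36. None of the 6 was past 2-fold, beside 3.46% of all genes lower and 3.00% higher. The highest was *ABCB28*, with 1060 in *agl62* and 824 in WT.

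The 3 protein-coding genes whose pair of means was nearest to that of *PGP10* all encode defensin-like proteins, small secreted cysteine-rich proteins. AT1G69818 had 48.8 in *agl62* and 618 in WT (log2 −3.64), AT5G46877 had 43.6 in *agl62* and 510 in WT (−3.52), and AT1G68905 had 53.3 in *agl62* and 569 in WT (−3.39). Likeness was measured over only 2 pooled means, as the distance between log2 levels, which was 0.16, 0.20 and 0.27.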
